A study of Mus musculus with 20 samples.

Results

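miR-122 and miR-802 were followed through the livers of PiZ and wild-type mice as 4 mature miRNAs, the 5p and 3p arms of each hairpin. They were taken from the count files by their names, mmu-miR-122-5p, mmu-miR-122-3p, mmu-miR-802-5p and mmu-miR-802-3p, and are written below without the species prefix. Each of the 4 was present in all 20 files, among 880 miRNAs listed in every file, and each passed the filter on low counts, so that 4 of the 336 miRNAs tested are described here. The samples were livers of 6-week-old C57BL/6 mice, 5 PiZ and 5 wild-type (WT), each sequenced as 1 small RNA library in 2 technical runs. The PiZ transgene encodes human alpha-1 antitrypsin in its Z form, which misfolds and builds up in the endoplasmic reticulum of the hepatocytes that make it. Not given in the sources used here were the transgene's promoter, the sex of the mice and whether WT mice were littermates. A liver sample holds all cell types of the organ, so fewer hepatocytes and less miRNA per hepatocyte cannot be told apart in these values.

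A miRNA is cut from a hairpin precursor, and 1 or both arms are loaded into Argonaute, where bases 2 to 8, the seed, pair with target mRNAs. miR-122 is the best-known hepatocyte miRNA. It is transcribed from its own gene under liver-enriched transcription factors and is known for its part in cholesterol and lipid metabolism, hepatocyte differentiation and hepatitis C virus replication. miR-802 is also made in liver and is known for impairing glucose handling when it is raised in obese mice.

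RefSeq mature sequences on GRCm38.p6 were matched for 2 of the 4 members, both arms of miR-802. They are shown because each arm has its own count and its own seed, so that the arms would pair with different targets. Capitals mark the seed, bases 2 to 8 counted from the 5′ end.
miR-802-5p: uCAGUAACaaagauucauccuu
miR-802-3p: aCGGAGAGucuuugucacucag
Neither seed was shared with any other of the 1679 mature mouse miRNAs compared (0 for each arm), so neither arm has a seed relative among them. In the hairpin, read 5′ to 3′ from the plus strand of chr16:93369720-93369816, capitals mark the 2 arms.
mir-802 hairpin: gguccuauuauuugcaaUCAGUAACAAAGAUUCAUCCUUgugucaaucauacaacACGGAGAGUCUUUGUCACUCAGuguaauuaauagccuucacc
The arms are 22 bases each and lie 16 bases apart. The hairpin is intergenic, with 0 RefSeq and 0 GENCODE M21 genes overlapping it. The nearest gene is the long non-coding RNA 1810053B23Rik, 10176 bases away on the side of lower coordinates, and the nearest protein-coding genes are Setd4, 213640 bases away, and Runx1, 543645 bases away.

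The smallest library, WT mouse 1, held 1307857 reads and the largest, PiZ mouse 4, held 10780801. Levels are given as CPM, counts per 1000000 reads after TMM adjustment of library sizes, on which 1 read was worth 0.0888 CPM in PiZ mouse 4 and 0.560 CPM in WT mouse 3. The files carry 2 lists of miRNAs, a longer one (PiZ mice 1 and 2, WT mice 1 to 3) and a shorter one (PiZ mice 3 to 5, WT mice 4 and 5), and the model held a term for this file set. WT mice 1 and 3 had the 2 smallest libraries and the 2 highest shares of miR-22-3p, the most abundant miRNA (59.7% and 52.2% of reads, against 38.5% to 46.1% in the other 8 mice). Results that rest on them are given with and without them.

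miR-122-5p, the arm of miR-122 that is loaded and acts, was the most abundant of the 4 members and lay lower in every PiZ liver than in any WT liver. In PiZ mice 1 to 5 it stood at 6812, 11146, 8883, 10168 and 10585 CPM. In WT mice 1 to 5 it stood at 13505, 11677, 11963, 14256 and 13608 CPM. PiZ mouse 1 was the lowest of all 10, and the closest mice of the 2 genotypes were PiZ mouse 2 and WT mouse 2. PiZ livers averaged 9519 ± 1727 CPM and WT livers 13002 ± 1121 CPM (SD, n = 5 in each), a ratio of 0.732. The CPM ranges of the genotypes did not overlap in 8.93% of the 336 tested miRNAs, and with PiZ lower in 8 of them (2.38%), among which miR-122-5p was the second most abundant after miR-26a-5p.

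The separation of miR-122-5p did not pass the test over all miRNAs. Its log2 fold change was -0.48 with SE 0.18 (adjusted p = 0.118, unadjusted p = 0.0208, edgeR quasi-likelihood test, 5 of 5 PiZ mice below all WT mice). It passed in DESeq2 (log2 fold change -0.52, adjusted p = 0.0241) and in edgeR without PiZ mouse 2 (log2 fold change -0.84, adjusted p = 0.0205), and was -0.50 (adjusted p = 0.121, edgeR) without WT mice 1 and 3. As a plain share of reads the ranges overlapped by 1 pair of mice: PiZ mouse 2 had 1.13% (95% Wilson interval 1.11% to 1.14%) and WT mouse 2 had 1.10% (1.08% to 1.11%). In rank, miR-122-5p was the 11th to 17th most abundant of the 880 miRNAs in PiZ and the 8th to 13th in WT libraries.

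miR-122-3p, the partner strand that is mostly discarded during loading, was present at much lower levels and showed no separation by genotype. In PiZ mice 1 to 5 it stood at 49.6, 76.9, 46.8, 60.6 and 106 CPM. In WT mice 1 to 5 it stood at 34.1, 81.5, 44.8, 64.3 and 90.1 CPM. PiZ mouse 5 was the highest and WT mouse 1 the lowest, and the other 8 mice were intermixed. PiZ livers averaged 67.9 ± 24.2 CPM and WT livers 63.0 ± 23.7 CPM (SD, n = 5 in each), with a log2 fold change of 0.054 and SE 0.32 (adjusted p = 0.946, edgeR). The sign of this value turned negative in several alternative fits, among them the one without WT mice 1 and 3 (-0.26, SE 0.28), so no direction is given.

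**Figure D1:**
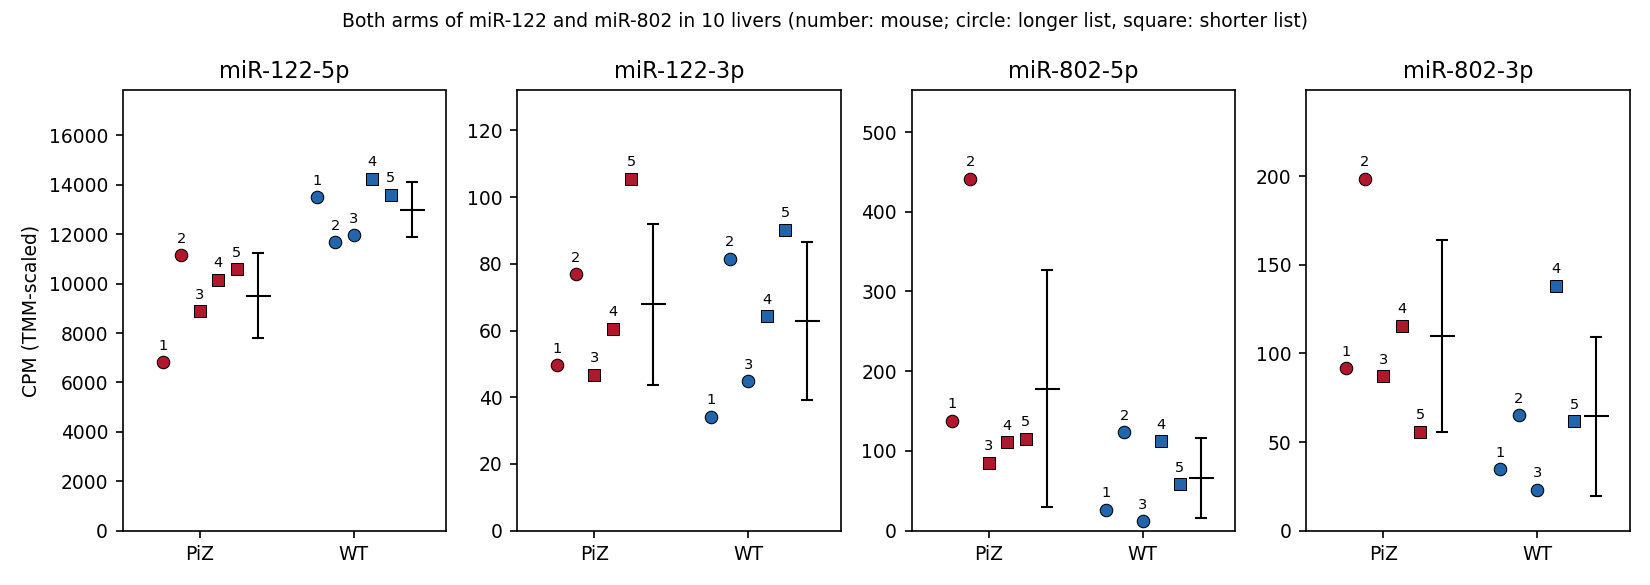
CPM (vertical axes, starting at 0) of the 4 members in each PiZ (red) and WT (blue) liver, with mouse numbers above the points, circles for the longer-list files, squares for the shorter-list files, and the mean and SD at the right of each group. For miR-122-5p all 5 PiZ mice sit below all 5 WT mice, while for miR-802-5p PiZ mouse 2 stands at 442 CPM and WT mice 1 and 3 stand at 26.3 and 11.8 CPM.

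miR-802-5p, the arm usually meant by miR-802 in work on glucose metabolism, had a higher mean in PiZ liver and a wide spread in both genotypes. In PiZ mice 1 to 5 it stood at 138, 442, 85.4, 111 and 115.2 CPM. In WT mice 1 to 5 it stood at 26.3, 123, 11.8, 112 and 58.4 CPM. PiZ mouse 2 was far above the other 9 mice, WT mice 1 and 3 were far below, and the remaining 4 PiZ and 3 WT mice overlapped. PiZ livers averaged 178 ± 148 CPM and WT livers 66.4 ± 49.9 CPM (SD, n = 5 in each), a ratio of 2.69. The log2 fold change was 1.34 with SE 0.64 (adjusted p = 0.218, edgeR, 2 of 5 PiZ mice above all WT mice). It was 0.55 (SE 0.42, adjusted p = 0.457) without WT mice 1 and 3, and 0.46 (SE 0.63, adjusted p = 0.720) without PiZ mouse 2. It passed in edgeR when miRNAs of low counts were kept in the fit (log2 fold change 1.21, SE 0.29, adjusted p = 7.88e-04). That fit called 83 miRNAs, against 31 in the main fit.

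miR-802-3p, the other arm, followed the same mice at both ends of the range. In PiZ mice 1 to 5 it stood at 91.7, 199, 87.1, 116 and 55.8 CPM. In WT mice 1 to 5 it stood at 34.8, 65.3, 23.0, 138 and 61.8 CPM. PiZ mouse 2 was again the highest and WT mice 1 and 3 the lowest, but WT mouse 4 was the second highest and PiZ mouse 5 lay below 3 WT mice. PiZ livers averaged 109.8 ± 54.1 CPM and WT livers 64.6 ± 44.9 CPM (SD, n = 5 in each), and the log2 fold change was 0.78 with SE 0.48 (adjusted p = 0.345, edgeR). Without WT mice 1 and 3 it was 0.18 (SE 0.47), and without PiZ mouse 2 it was 0.11 (SE 0.47). In the shorter-list files alone it was -0.23 (SE 0.49).

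None of the 4 members passed an adjusted p of 0.05 in edgeR (0 of 4), where 9.23% of the 336 tested miRNAs did, 8.33% with PiZ higher and 0.893% with PiZ lower. That background of 31 calls was itself 0 without WT mice 1 and 3, and 5 to 46 with 1 mouse left out. Of the 4, 1 had an unadjusted p under 0.05, miR-122-5p, against 24.7% of all tested. DESeq2 called 1 of the 4, the same arm, where it called 50 of the 336 tested. The standard errors of the miR-802 arms, 0.64 and 0.48 on the log2 scale, were larger than that of miR-122-5p, 0.18.

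**Figure D2:**
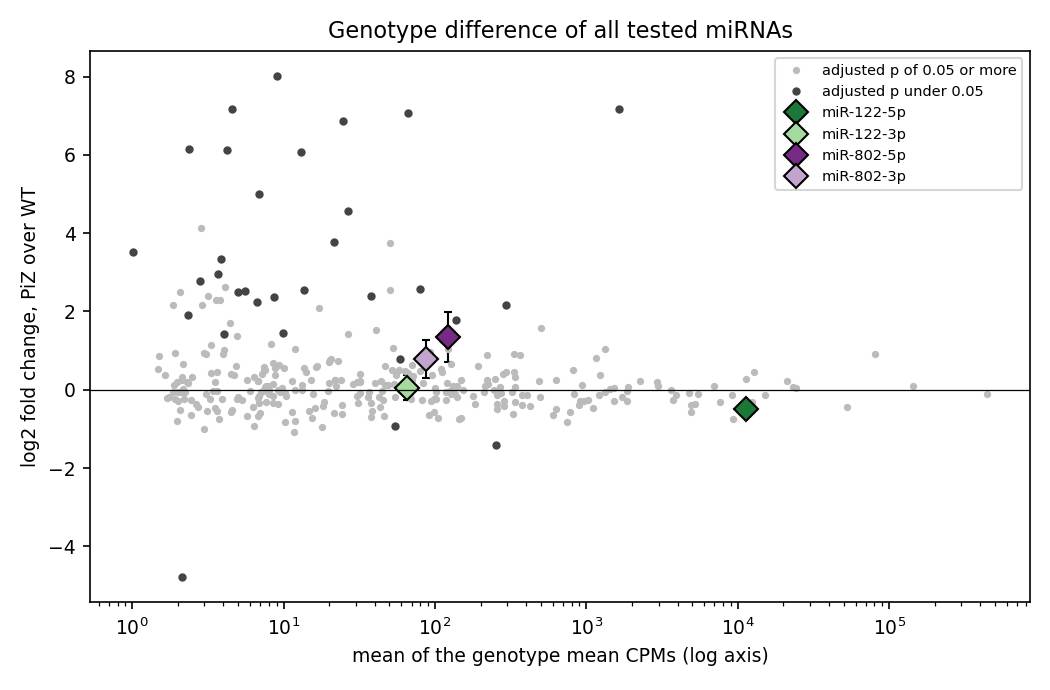
Log2 fold change of PiZ over WT (vertical axis) against the mean of the 2 genotype mean CPMs (horizontal log axis) for the 336 tested miRNAs, with the 4 members as diamonds with SE bars and miRNAs past an adjusted p of 0.05 in dark grey. miR-122-5p lies below 0 at the abundant end, both miR-802 arms lie above 0 and miR-122-3p lies near 0, and none of the 4 is in dark grey itself.

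The 2 hairpins differed in how reads were split between arms. In miR-122 the 5p arm held nearly all reads, from 99.0% (95% Wilson interval 98.9% to 99.1%) in PiZ mouse 5 to 99.7% (99.7% to 99.8%) in WT mouse 1. In miR-802 the arms were near even, and the 5p arm held from 33.9% (23.3% to 46.3%) in WT mouse 3 to 69.0% (66.7% to 71.2%) in PiZ mouse 2. Of 64 hairpins with enough reads of both arms, that of miR-802 was the 5th most even. Its 5p arm held over 60% of reads in PiZ mice 1, 2 and 5 (60.1%, 69.0% and 67.4%) and WT mouse 2 (65.4%), and under 50% in the other 6 mice. These high and low mice come from both genotypes and both file sets.

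Neither hairpin differed between genotypes in this balance by the test over hairpins. On the log2 scale, 5p over 3p reads of miR-802 averaged 0.54 ± 0.57 over PiZ and -0.16 ± 0.68 over WT mice (SD, n = 5 in each), and the model put the difference at 0.76 with SE 0.38 (adjusted p = 0.572, limma). Without WT mice 1 and 3, which had 37 and 21 reads of miR-802-5p, the difference was 0.31 (SE 0.30). For miR-122 it averaged 7.18 ± 0.35 over PiZ and 7.77 ± 0.60 over WT mice, and the model put the difference at -0.56 with SE 0.32 (adjusted p = 0.572, limma), and -0.21 (SE 0.27) without WT mice 1 and 3. Of the 64 hairpins, limma called 0, and the 2 with an unadjusted p under 0.05 (3.12%) did not include miR-122 or miR-802.

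Since both miRNAs are known from hepatocytes, their ratio within a library was compared, which needs no scaling factor. There were fewer miR-122-5p reads per miR-802-5p read in PiZ than in WT liver. PiZ mice 1 to 5 had 49.4, 25.2, 104, 91.8 and 91.8 miR-122-5p reads per miR-802-5p read. WT mice 1 to 5 had 514, 94.8, 1016, 127 and 233. WT mouse 2 lay within the PiZ range, and the other 4 WT mice lay above it. On the log2 scale the ratio averaged 6.00 ± 0.86 over PiZ and 8.07 ± 1.40 over WT mice (SD, n = 5 in each), a PiZ minus WT difference of -2.07 (exact two-sided permutation test, p = 0.0159, where the smallest p for 5 against 5 is 0.00794).

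The difference of that ratio kept its sign in both file sets and shrank without the libraries in doubt. It was -3.36 among 2 PiZ and 3 WT mice of the longer list and -0.85 among 3 PiZ and 2 WT mice of the shorter list (exact permutation p = 0.200 in each, the smallest that such groups allow). Without WT mice 1 and 3 it was -1.13 (exact permutation p = 0.0714). It was 1 of 3 single values tested in this way, with p unadjusted. The others were the summed share of the miR-122 arms, 0.955% ± 0.172 over PiZ and 1.31% ± 0.139 over WT mice (SD, n = 5 in each; exact permutation p = 0.0159), and that of the miR-802 arms. Without WT mice 1 and 3 the difference of the miR-122 share was -0.280 points (exact permutation p = 0.0714). The miR-802 share averaged 0.0290% ± 0.0204 over PiZ and 0.0126% ± 0.00798 over WT mice (SD, n = 5 in each; exact permutation p = 0.0714). Without WT mice 1 and 3 the difference of the miR-802 share was 0.0116 points (exact permutation p = 0.321).

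**Figure D3:**
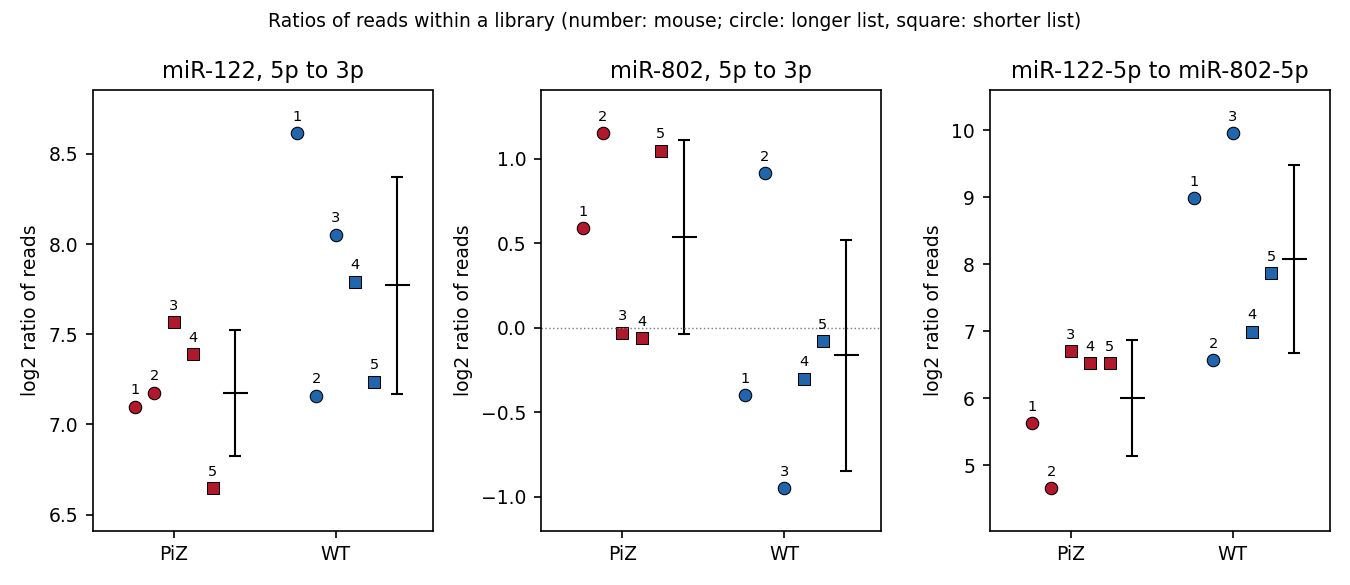
Log2 ratios of reads within each library for the arms of miR-122, the arms of miR-802 and miR-122-5p over miR-802-5p (vertical axes, log2), by genotype, with mouse numbers, file-set symbols and the mean and SD of each group. In the right panel the PiZ mice sit between 4.66 and 6.70 and the WT mice between 6.56 and 9.96, with WT mouse 2 the lowest WT point.

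The file sets gave different sizes for miR-802 and like sizes for miR-122-5p. The log2 fold change of miR-802-5p was 2.47 (SE 0.86) in the longer-list and 0.25 (SE 0.33) in the shorter-list files, and that of miR-802-3p was 1.84 (SE 0.52) and -0.23 (SE 0.49). PiZ mouse 2 and WT mice 1 and 3, the extremes of miR-802, all lie in the longer-list files. The test of the difference itself, shorter minus longer, did not pass for either arm in edgeR. For miR-802-3p it was -2.08 (SE 0.78, adjusted p = 0.882, unadjusted p = 0.0238, edgeR). For miR-802-5p it was -2.18 (SE 1.15, adjusted p = 0.882, unadjusted p = 0.0882, edgeR). For miR-122-5p the log2 fold change was -0.47 (SE 0.40) and -0.53 (SE 0.11), a difference of -0.080 with SE 0.36 (adjusted p = 0.964, edgeR). 0 of 372 miRNAs passed this test in edgeR and 0 in DESeq2, and 16, miR-802-3p among them, had an unadjusted p under 0.05 in edgeR.

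The members also differed in how far mice of 1 genotype lay apart. The SD of log2 CPM within genotype was 0.22 for miR-122-5p, 0.54 for miR-122-3p, 0.84 for miR-802-3p and 1.20 for miR-802-5p, where the median over the 336 tested miRNAs was 0.52. From the most variable down, miR-802-5p was the 22nd, miR-802-3p the 78th and miR-122-5p the 323rd. Between the lowest and the highest mouse, miR-802-5p spanned 5.17-fold in PiZ and 10.5-fold in WT liver, and miR-122-5p spanned 1.64-fold and 1.22-fold. The low end of miR-802-5p in WT liver was WT mice 3 and 1, at 11.8 and 26.3 CPM from 21 and 37 reads. The other WT mice ran from 58.4 to 123 CPM. Its high end in PiZ liver was PiZ mouse 2, at 442 CPM, against 85.4 to 138 CPM in the other PiZ mice. The SDs and ranks given here include these mice.

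The 2 technical runs of each library were set beside these spreads. The root mean square log2 difference between the 2 runs of a library was 0.010 for miR-122-5p, 0.17 for each of miR-122-3p and miR-802-3p, and 0.47 for miR-802-5p. For miR-802-5p the largest run differences came from WT mice 1 and 3, with 19 and 18 reads and with 17 and 4 reads in their runs 1 and 2. The spread between mice of 1 genotype was 21.7 times the run difference for miR-122-5p and 2.54 times for miR-802-5p. The run difference is between single runs, whereas the spread between mice is of the 2 runs summed. It is therefore a scale for comparison and not a floor under that spread. Counting error alone gave a 95% Wilson half-width of 0.550% to 1.51% of the value for miR-122-5p, and of 5.55% to 43.7% for miR-802-5p. Because PCR copies of 1 molecule cannot be told apart here, these intervals hold counting error and nothing else.

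**Figure D4:**
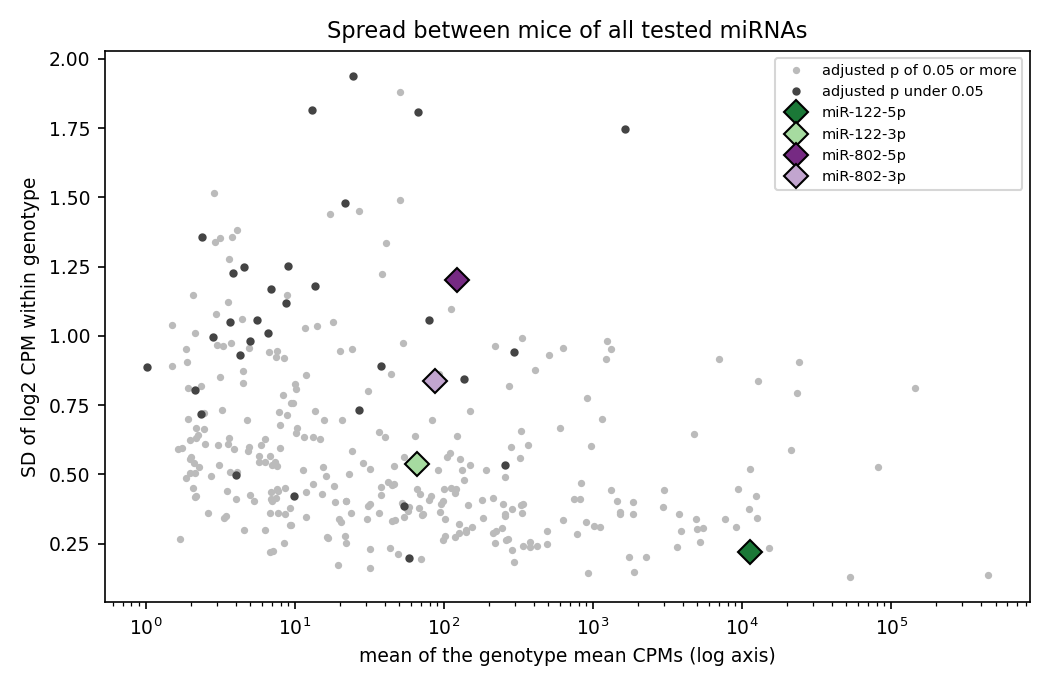
SD of log2 CPM among mice of 1 genotype (vertical axis) against the mean of the 2 genotype mean CPMs (horizontal log axis) for the 336 tested miRNAs, with the 4 members as diamonds. miR-802-5p stands at 1.20, above most miRNAs of its abundance, and miR-122-5p stands at 0.22 near the lower edge.

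A wider list of miRNAs known from hepatocytes or abundant in liver, 22 of them tested with the 4 members included, did not move one way. 10 had a positive and 12 a negative log2 fold change, with a median of -0.10, where the median of all tested miRNAs was 0.063. edgeR called 0 of the 22, against 9.23% of all tested, and 6 had an unadjusted p under 0.05, a share near the 24.7% of all tested. DESeq2 called 1, miR-122-5p, where it called 50 of all 336 tested miRNAs. Without the 4 members, 7 of the 18 others were positive and 11 negative, with a median of -0.12, 5 by unadjusted p and 0 calls in either tool. The fold changes ran from -0.83 for miR-455-3p to 1.34 for miR-802-5p, which was the highest of the list.

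Among the abundant members of that list, miR-194-5p, made in part from a shared transcript with miR-192, came closest to miR-122-5p in level and direction. PiZ livers averaged 9539 ± 1948 CPM and WT livers 12828 ± 3513 CPM (SD, n = 5 in each; log2 fold change -0.46, SE 0.23, adjusted p = 0.237, edgeR), and its ranges overlapped. miR-148a-3p, a repressor of DNA methyltransferase and LDL receptor mRNAs, had the opposite sign (log2 fold change 0.92, SE 0.30, adjusted p = 0.0959, edgeR), and all 5 PiZ mice exceeded the highest WT mouse. miR-192-5p (0.10, SE 0.41), miR-30a-5p (0.20, SE 0.25), miR-378a-3p (-0.39, SE 0.23) and miR-22-3p (-0.10, SE 0.15) lay between these.

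**Figure D5:**
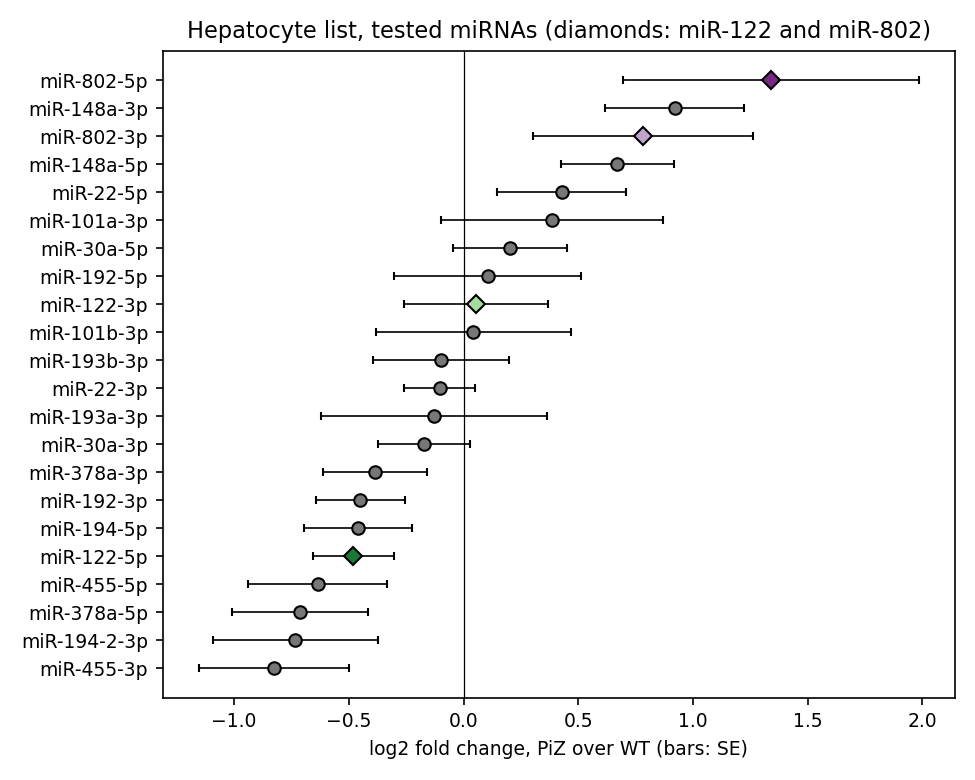
Log2 fold change of PiZ over WT (horizontal axis, bars are SE) for the 22 tested miRNAs of the hepatocyte list, ordered by value, with miR-122 and miR-802 arms as diamonds. miR-802-5p is at the top with 1.34 and the widest bar, and miR-122-5p is in the lower part with -0.48.

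The arms of each hairpin were also set side by side over mice. As a description of log2 CPM over the 10 mice, which mixes genotypes, file sets and depths, Pearson's r was 0.91 between the arms of miR-802 and 0.15 between the arms of miR-122, and 0.87 and 0.40 after the genotype means were taken out. Of 335 other tested miRNAs, the 3 closest to miR-122-5p were miR-26a-5p (r = 0.84), miR-210-3p (r = 0.84) and miR-210-5p (r = 0.80), at 0.56, 0.67 and 0.74 after the genotype means were taken out. The closest to miR-122-3p were miR-192-5p (r = 0.89), miR-30d-3p (r = 0.87) and miR-3068-3p (r = 0.86). For both arms of miR-802 the 3 closest were miR-29a-5p (r = 0.92 with 5p and 0.96 with 3p), the other arm, and miR-676-5p (r = 0.90 and 0.87). Between miR-122-5p and miR-802-5p, r was -0.32 over all mice and 0.26 after the genotype means were taken out.

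Markers of other liver cells and of other tissues were read beside these values as summed CPM. The sums take in every listed marker found in the files under its own name, also those that did not pass the filter on low counts. Over all 336 tested miRNAs, edgeR called 9.23% (24.7% by unadjusted p) and DESeq2 called 50. Of 6 tested immune markers 0 passed in edgeR (2 by unadjusted p) and 1 in DESeq2, and their sum ran from 1897 to 3039 CPM in PiZ and from 905 to 2173 CPM in WT liver. Of 3 erythroid markers 0 passed in edgeR (all 3 by unadjusted p) and 1 in DESeq2, with sums of 84.4 to 507 and 21.3 to 249.6 CPM. These markers were miR-451a, miR-144-3p and miR-144-5p, the last 2 being arms of 1 hairpin. Left out of the erythroid set was miR-486-5p, which is counted jointly with miR-3107-5p. That joint entry was more abundant, with means of 724 (PiZ) and 535 (WT). Its log2 fold change was 0.25 (SE 0.52, adjusted p = 0.809, edgeR). Of 4 tested pancreas markers 2 passed in edgeR, both higher in PiZ, and 3 in DESeq2, with sums of 12.2 to 85.5 and 5.74 to 17.0 CPM. The endothelial (23375 to 28821 and 7843 to 41310 CPM), stellate and smooth muscle (9509.8 to 14504 and 5608 to 16498 CPM) and biliary (183 to 319.6 and 193 to 282 CPM) sums overlapped between genotypes, with 0 of 14 tested markers passing in edgeR or DESeq2 (1 stellate and 3 biliary markers had an unadjusted p under 0.05 in edgeR). The 1 nerve marker tested, miR-128-3p, did not pass. The nerve sums, over 4 listed miRNAs, were 35.3 to 132 CPM in PiZ and 39.2 to 56.8 CPM in WT liver. None of the 3 listed muscle markers passed the filter on low counts. Their sums were 67.3 CPM in PiZ mouse 4, 0 to 2.46 CPM in the other PiZ mice and 0 to 2.13 CPM in WT liver. miR-133c, which was not on the list, passed the filter. It ran from 5.92 to 455 CPM in PiZ and from 1.42 to 5.60 CPM in WT liver (log2 fold change 3.74, SE 1.53, adjusted p = 0.158, edgeR). WT mice 1 and 3, the lowest in miR-802, were also the lowest in the endothelial sum (7843 and 12662 CPM, against 23375 to 41310 CPM in the other 8 mice), the erythroid sum (45.5 and 21.3 CPM) and the stellate sum (5608 and 8127 CPM), and WT mouse 1 had the lowest immune sum. The part of these markers in the miR-122 and miR-802 values was not tested.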

How the data were processed

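Livers were frozen, RNA was extracted with a miRNeasy kit and libraries were made with a TruSeq small RNA kit, per the labels' protocols. The submitters' processing notes name CASAVA. The aligner, build, miRBase release and treatment of multiply matching reads were not given in the sources used here. The deposited files hold estimated counts per mature miRNA, of which none was fractional for the 4 members. The 2 runs of a mouse were summed and rounded to whole numbers, and the 880 miRNAs listed in every file were used. edgeR 4.0.16 (filterByExpr, TMM, quasi-likelihood F-test with file set and genotype, Benjamini-Hochberg, threshold 0.05) gave the main test. SE was taken as log2 fold change over the root of the F statistic. Log2 CPM used a prior count of 2. Arm balance used limma 3.58.1 on log2 ratios (pseudocount 0.5, mean of at least 20 reads per arm). Exact permutation tests used scipy 1.17.1, and alternatives DESeq2 1.42.0. The fits were tested on simulated data. Named were the members, the 6 most abundant others of the hepatocyte list, and the 3 miRNAs most correlated with each member. miR-455-3p, miR-26a-5p and miR-133c, where singled out elsewhere, were chosen after their values were seen. Members and lists were chosen with earlier results of these data known. Same-numbered PiZ and WT mice are different animals. The p-values judge the genotype difference against the spread between these mice, taken as independent. The labels do not give litters or cages, so that independence cannot be checked.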

Additional observations from a re-analysis of the deposited data

Results flagged for a closer look

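Gaps within the 5 mice of a genotype were examined in 26 groups of values, and chance alone marks about 1 group in 20 (5%). In the groups examined, 2 gaps passed Dixon's limit of 0.71, both at PiZ mouse 2 and both from the same reads. Its miR-802-5p level of 442 CPM lay 0.852 of the PiZ range above the next PiZ mouse, and its share of reads from both miR-802 arms, 0.0648% (95% Wilson interval 0.0617% to 0.0680%), lay 0.820 of the range above the next. On the log2 scale the same level fell just short of the limit and did not pass. It stood at 8.79, against 7.11 in the next PiZ mouse and 6.42 in the lowest. PiZ mouse 2 was also the highest PiZ mouse for miR-122-5p.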

How the results depend on the processing

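The log2 fold change of miR-122-5p was negative in all 23 alternatives run (-0.84 to -0.42; -0.84 to -0.43 with 1 mouse left out) and passed in 2, DESeq2 (-0.52) and without PiZ mouse 2. That of miR-802-5p was positive in all 23 (0.25 to 2.47; 0.46 to 1.74 with 1 mouse left out) and passed in 1, without the filter (1.21). miR-802-3p was negative in the shorter-list files alone (-0.23) and ran from 0.11 to 1.26 with 1 mouse left out. miR-122-3p, 0.054, ran from -0.34 to 0.20 with 1 mouse left out and was negative with total counts without miR-22-3p (-0.0024), without the filter (-0.066), in the shorter-list files (-0.17), without WT mice 1 and 3 (-0.26) and with PiZ mouse 5 left out as well (-0.48). The cause was not tested.

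The arm balance did not pass in any of 16 alternatives for either hairpin (with 1 mouse left out, -0.72 to -0.38 for miR-122 and 0.56 to 0.98 for miR-802). The lower miR-122 share (difference -0.41 to -0.29 points with 1 mouse left out) missed 0.05 in the longer-list files (-0.410 points) and shorter-list files (-0.317), without WT mice 1 and 3 (-0.280) and with PiZ mouse 5 left out as well (-0.270). Of these 4 settings, only that without WT mice 1 and 3 alone has groups large enough to reach 0.05. The ratio of miR-122-5p to miR-802-5p (-2.44 to -1.60 with 1 mouse left out) missed it in the same 4 settings (-3.36, -0.85, -1.13 and -1.26). The miR-802 share, 0.0164 points, passed without PiZ mouse 5 (0.0200, exact permutation p = 0.0476) or WT mouse 4 (0.0191, exact permutation p = 0.0317), and ran from 0.00744 to 0.0200 points with 1 mouse left out; without PiZ mouse 2 it was 0.00744.

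The number of miRNAs called, 31, was 18 with total counts without miR-22-3p, 83 without the filter, 50 in DESeq2, 7 in limma-voom, 17 without the file set term, 18 with run 2 alone, 0 in the shorter-list files, 0 without WT mice 1 and 3, 100 with PiZ mouse 5 left out as well, and 5 (without WT mouse 4) to 46 (without PiZ mouse 5) with 1 mouse left out. No paired analysis was possible because the replicate numbers in the labels are technical runs of 1 library, which were summed, and mouse numbers name different animals. Depth limits miR-802-5p most, with 21 reads in WT mouse 3.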
